A study of Glycine soja and Glycine max with 13 samples.

Results

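A set of 55 genes was near silent in some soybean lines and clearly expressed in others, among 43517 listed features measured in developing seeds. The genes were chosen by their measured counts in all 13 lines. A gene belonged to the set when it had at most 2 counts in at least 2 of the 13 lines and at least 5 CPM in at least 4 lines, where CPM is the count divided by the total of that line and scaled to 1 M (M, mega). Here a line with at most 2 counts of a gene is called silent for it, and a line with at least 5 CPM is called expressing. These 2 limits were met by 70 genes. Of these, 15 were left out for an absolute Spearman rho of 0.6 or more with Glyma.03G163500, whose order of lines they followed or opposed. That gene is known from the literature as a glycinin gene, which encodes a seed storage protein and rises as seeds fill, although no table used here names it. These counts chose the genes, so the levels and group differences of the 55 genes are a description. The numbers of them called between the groups stand beside those of all genes, and nothing is read from them.

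The lines were 6 cultivated soybeans (Glycine max), df12, df14, df17, df3, df36 and df43, and 7 wild soybeans (Glycine soja), ys1, ys16, ys17, ys23, ys26, ys29 and ys34. Field-grown plants gave the seeds, which the labels date to 13 days after flowering, and 1 stranded mRNA library was made from each line. The labels name no treatment, transgene or batch, each line stood for itself, and how many plants or seeds a library pools is not stated. The spread within a group was therefore the spread between lines. Glyma.03G163500, the gene behind the rho limit, was far from even among lines of this labelled age. Cultivated df14 held 0.983 CPM of it and df12 held 13103 CPM, while wild ys16 held 6.01 CPM and ys1 held 11758 CPM. Genes kept in the set had a rho with it of -0.58 to 0.54. Any part of seed stage in their silent and expressing states was not tested.

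Lines of a crop and its wild relative can differ in gene expression in an all-or-none way. A gene may be deleted from some genomes, its promoter may be disabled or methylated, or its sequence may have diverged so far that reads no longer align to the reference used for counting. Such presence and absence differences are a known feature of plant genomes, soybean included, and are often found in families of near-identical tandem copies. In a count table a missing gene, a diverged gene and an untranscribed gene look alike and cannot be told apart. Seeds are also a mixture of embryo, endosperm and coat, so that fewer cells of one tissue and less RNA per cell cannot be told apart either. The files and the gene table used here name the product of none of the 55 genes, so they are described by identifier, in which the digits before the G give the chromosome.

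Totals ran from 12.7 M counts in df3 to 26.0 M in df36. At these depths 2 counts stood for 0.0768 to 0.158 CPM and 5 CPM for 63.3 to 130 counts, so the silent and the expressing state were far apart in every library. A count of 0 allows up to 3 counts, or 0.115 to 0.237 CPM, which covers counting error only. At the CPM limit, the genes just inside were Glyma.20G136600 and Glyma.14G193100, whose fourth-highest line stood at 5.04 and 5.08 CPM, and those just outside were Glyma.20G069000 and Glyma.11G153400, at 4.93 and 4.80 CPM. At the rho limit, Glyma.20G136600 was just inside at -0.58 and Glyma.20G151700 just outside at -0.60.

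On average, wild lines lacked more of these genes than cultivated lines did. Of the 715 values of 55 genes in 13 lines, 193 were silent, 355 were expressing and 167 lay in between. The silent share was 20% of the 330 values in cultivated lines and 33.0% of the 385 values in wild lines, and 0 counts made up 10.6% and 21.0%. By line, 7 genes were silent in df14, 7 in df17, 10 in df43, 11 in df36, 15 in df12 and 16 in df3, a mean of 11 ± 3.85 (SD, n = 6). In the wild lines 13 were silent in ys23, 15 in ys1, 16 in ys16, 20 in ys17, 20 in ys29, 21 in ys26 and 22 in ys34, a mean of 18.1 ± 3.44 (SD, n = 7). The groups overlapped, since df12 and df3 lacked at least as many as ys1 and more than ys23. The number of expressing genes ran from 27 in df36 to 35 in df17 among cultivated lines and from 20 in ys26 to 30 in ys23 among wild lines. After the counts of each line were thinned to the smallest total, the median was 12 silent genes in cultivated lines and 21 in wild lines, beside 10.5 and 20 before.

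**Figure D1:**
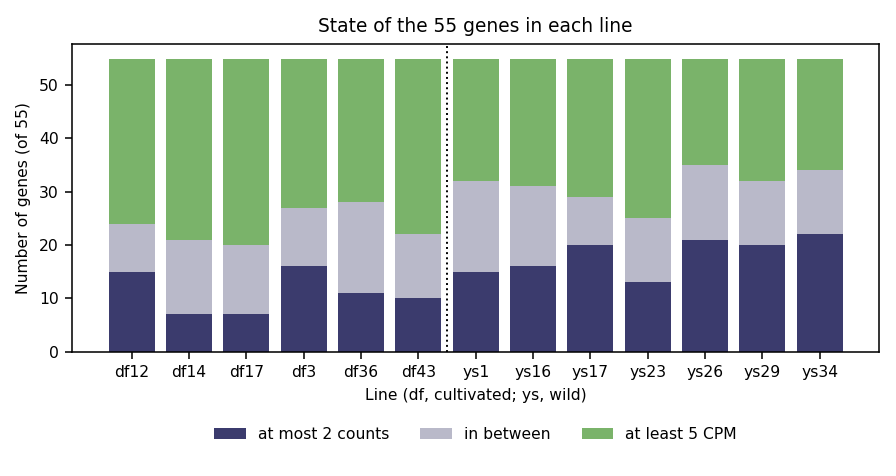
State of the 55 genes in each line. Bars stack the number of genes with at most 2 counts, in between, and with at least 5 CPM; silent genes number 7 to 16 in the 6 cultivated lines and 13 to 22 in the 7 wild lines, and the groups overlap.

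The share of silent genes per line was also compared with the 55 genes left out. Over the other 31371 genes kept by the edgeR expression filter, 0.614 ± 0.233% were silent in a cultivated line (SD, n = 6) and 0.918 ± 0.404% in a wild line (SD, n = 7; exact permutation test over 1716 splits, two-sided p = 0.139, adjusted p = 0.208 over 3 measures). Over the other 43462 listed features the shares were 20.4 ± 1.20% and 21.04 ± 1.52% (p = 0.446 and adjusted p = 0.446 by the same exact test). A further 91 genes, none of them in the set, met the same CPM and rho limits but were silent in exactly 1 line. They numbered 4.33 ± 4.08 per cultivated line, with 12 in df12 and 1 to 5 in the others, and 9.29 ± 3.86 per wild line, with 13 in each of ys1, ys23 and ys29 (p = 0.0583 and adjusted p = 0.175 by the same exact test). None of the 3 differences passed after adjustment. The 3 measures overlap, since the tested genes and the 91 are both among the listed features, so they are not separate looks. The same counts and libraries gave the 91 genes and the set, so the 91 are no independent check on it.

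Most genes of the set were lacking in lines of both groups. Silent lines were found in both groups for 32 genes, in wild lines alone for 19 and in cultivated lines alone for 4. These counts are not matched for the number of lines, 7 wild and 6 cultivated. When the rule was applied without 1 line, the first count ran from 23 to 30 and the second from 13 to 23. The count of 4 for cultivated lines alone rested on single lines. It was 0 without df3, 2 without df36 and 7 without ys26 when the rule was applied to the other 12 lines. The 4 were Glyma.04G081400, silent in df3 and df36, Glyma.04G104700, silent in df12 and df3, Glyma.06G084300, silent in df17 and df3, and Glyma.16G040000, silent in df3 and df36, so df3 lacked all 4. Of the 19 genes lacking in wild lines alone, 11 were silent in 2 wild lines, 6 in 3 and 2 in 4. The latter were Glyma.19G197200, silent in ys16, ys23, ys26 and ys34, and Glyma.20G050500, silent in ys1, ys16, ys17 and ys34.

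The number of silent lines per gene ranged from 2 to 8, with a median of 3. Silence in 2 lines was found for 24 genes, in 3 for 12, in 4 or 5 for 6 and in 6 to 8 for 13. The gene lacking in most lines, named after its values were seen, was Glyma.20G076400. It held 8.95 to 13.3 CPM in df14, df3, df36 and df43, 3.38 CPM in ys29 and 0 to 2 counts in df12, df17 and the other 6 wild lines. The cultivated lines were thus either silent or expressing for this gene, while 6 of 7 wild lines were silent.

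**Figure D2:**
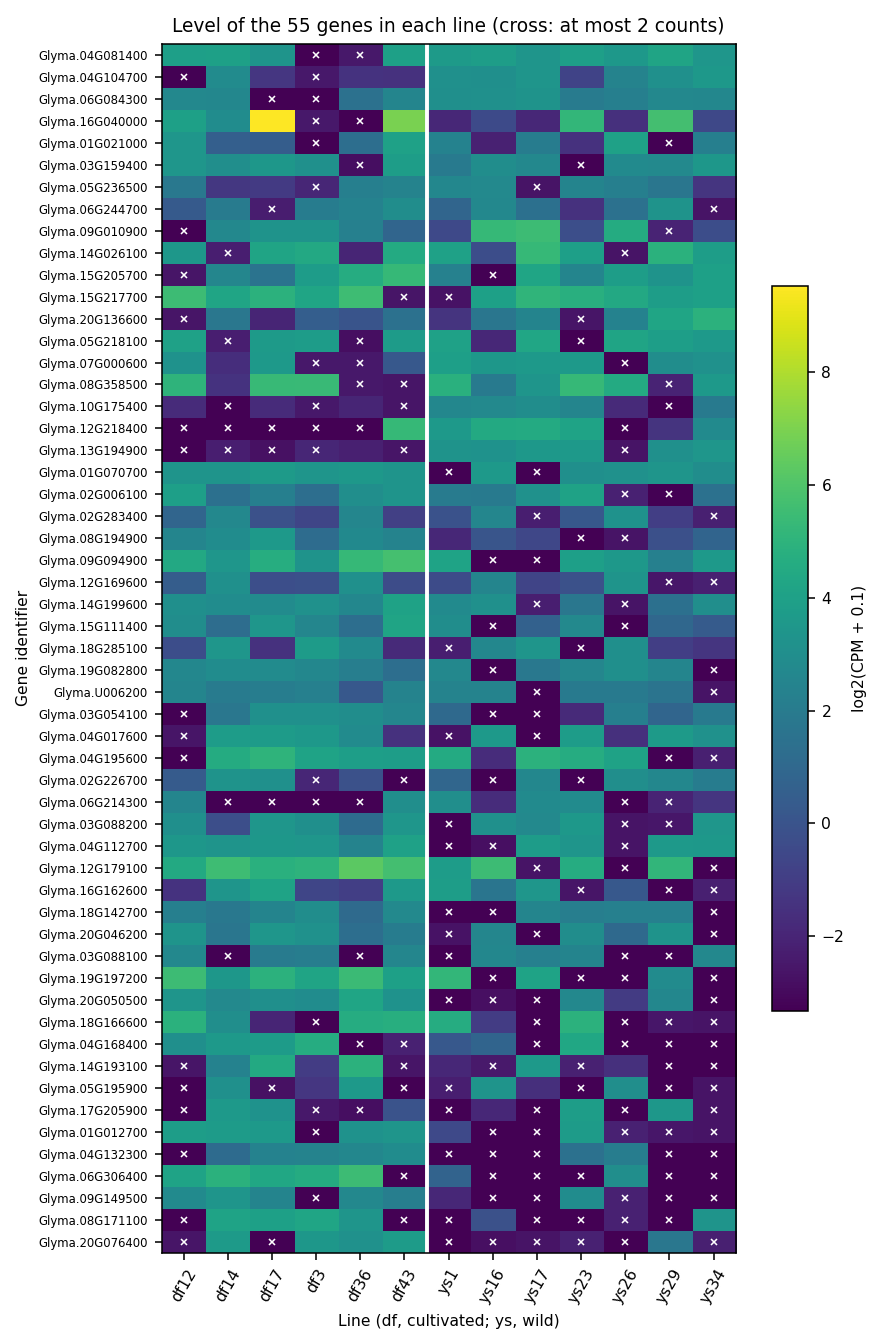
Levels of the 55 genes (rows) in 13 lines (columns) as log2(CPM + 0.1), with crosses where a line has at most 2 counts; rows are ordered by the number of silent wild lines, then of silent cultivated lines. Crosses are denser to the right of the white line, among the wild lines, with 127 of 193 there, and nearly every row has its own set of lines.

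Only 6 of the 55 genes were strictly all or none, with each of the 13 lines either silent or expressing. Glyma.01G070700 was the most even of them. It had 0 counts in ys1 and ys17 and 7.77 to 12.8 CPM in the other 11 lines, where cultivated lines ranged from 10.04 CPM in df12 to 12.8 CPM in df17. Its expressing lines thus spanned a 1.65-fold range, while its silent lines had no read at all. Glyma.04G081400 was similar, with 0 counts in df3, 2 in df36 and 9.81 to 18.4 CPM in the other lines. It was the 1 gene of the 55 that was expressing in all 7 wild lines, whereas 7 genes were expressing in all 6 cultivated lines.

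Wider ranges were found among the other strictly all-or-none genes. For Glyma.12G179100, wild lines ys17, ys26 and ys34 had 1, 0 and 0 counts, whereas wild ys1, ys16, ys23 and ys29 held 13.8, 45.7, 24.7 and 34.6 CPM. Its cultivated lines ranged from 22.5 CPM in df12 to 79.0 CPM in df36, with a mean of 43.3 ± 20.6 CPM (SD, n = 6). Glyma.15G217700 was split otherwise, with 1 count in cultivated df43, 1 count in wild ys1 and 14.3 to 47.0 CPM in the other 11 lines. Glyma.19G197200 had 0 counts in 4 wild lines, 7.33, 17.8 and 36.9 CPM in wild ys29, ys17 and ys1, and 11.2 to 45.6 CPM in the cultivated lines. Glyma.04G112700 had 0, 1 and 1 counts in ys1, ys16 and ys26 and 5.22 to 16.2 CPM in the others. Lines ys1 and ys26 were each silent in 3 of the 6 genes, and the set of silent lines differed from gene to gene.

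**Figure D3:**
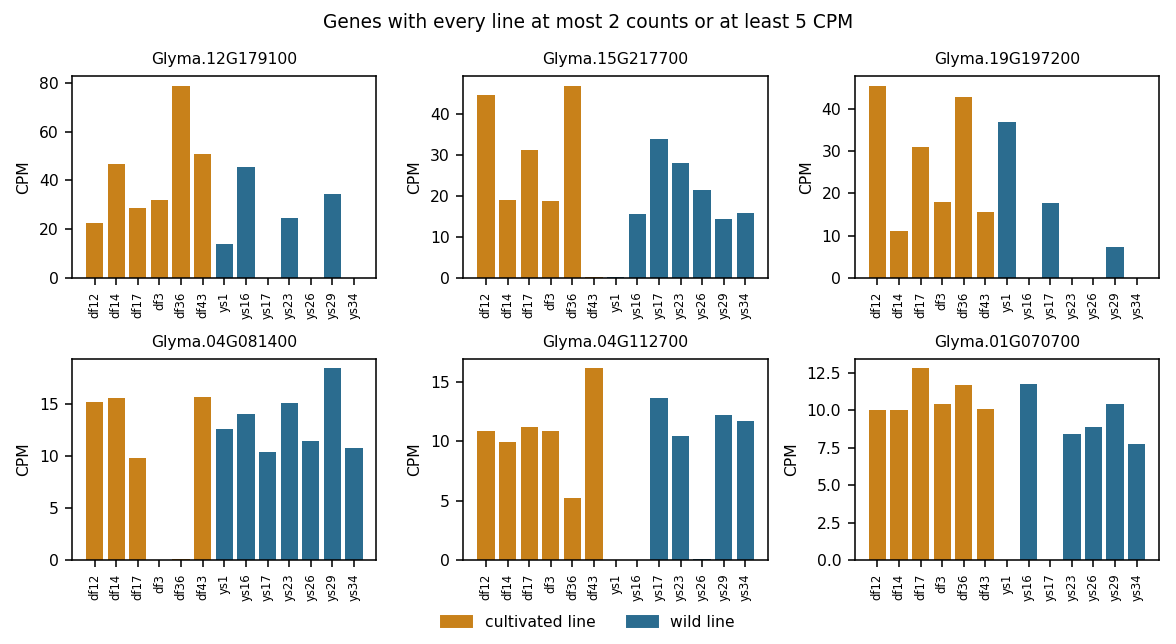
CPM in each line for the 6 genes in which every line had at most 2 counts or at least 5 CPM. Missing bars are lines with 0 to 2 counts; expressing lines span 1.65-fold in Glyma.01G070700 and 6.22-fold in Glyma.19G197200.

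The other 49 genes had at least 1 line in between, and of the 167 such values 76 were under 1 CPM and 91 from 1 to 5 CPM. Glyma.16G040000 reached the highest level of the set and was the least even. It stood at 742 CPM in df17, 123 CPM in df43, 15.6 CPM in df12 and 7.65 CPM in df14, with 1 and 0 counts in df3 and df36. Among wild lines it held 51.6 CPM in ys29 and 35.9 CPM in ys23, and 0.166 to 0.635 CPM in the other 5. Its expressing lines therefore spanned 97.1-fold. Glyma.09G094900 had 0 counts in ys16 and ys17 but 4.74 to 17.5 CPM in the other wild lines, and 9.55 to 53.6 CPM in the cultivated lines, with medians of 23.7 CPM in cultivated and 11.5 CPM in wild lines. Over the whole set the highest line of a gene stood at 5.65 to 742 CPM with a median of 14.3 CPM, values that are not corrected for gene length and do not rank genes against each other.

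Between cultivated and wild lines, the gene of the set that ranked first by edgeR was Glyma.13G194900. It was near silent in all 6 cultivated lines, with 0, 2, 1, 2, 3 and 1 counts in df12, df14, df17, df3, df36 and df43. In wild lines ys1, ys16, ys17, ys23, ys29 and ys34 it stood at 9.80, 9.15, 11.5, 11.7, 8.69 and 10.8 CPM, within a 1.35-fold range, and ys26 had 1 count. The group means were 0.0827 ± 0.0560 CPM in cultivated (SD, n = 6) and 8.82 ± 4.03 CPM in wild lines (SD, n = 7), and the groups overlapped only through ys26. Its fitted log2 fold change, cultivated over wild, was -6.58 (SE 0.831). The same counts put it in the set, and it passed the expression filter only through the 6 wild lines in which it was high, since it fell below the filter without any one of them. Its difference is therefore given without a p-value.

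Of the 49 genes of the set that passed the filter, edgeR's quasi-likelihood test called 1 at an adjusted p under 0.05. The share over all 31420 tested genes was 0.0446%. The 1 was Glyma.13G194900, which passed the filter only through its high wild lines, so it is given as a count only. Lower in cultivated lines was 1 of the 49, beside 0.0191% of all tested genes, and higher was 0 of the 49, beside 0.0255%. With limma voom and quality weights, 0 were called, and the share over all genes is not given for that fit. Without a filter 1 of the 55 was called, beside 0.0606% of 41227 genes. The other 6 fell below the filter and were not tested. Before adjustment, 6 of the 49 had a p under 0.05, where the share over the whole table was 18.9%. DESeq2 called 3 of the 55, beside 3.70% of its 33984 genes with an adjusted p. Its calls were Glyma.13G194900, Glyma.08G194900 and Glyma.10G175400. The rule and the tests used the same counts, so none of these numbers bears on the set. For the same reason, no call of a named gene is evidence of a group difference.

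Glyma.08G194900 ranked first by edgeR among the genes of the set that were higher in cultivated lines. It ranged from 2.21 CPM in df3 to 11.7 CPM in df17 among cultivated lines (median 6.28 CPM) and from 0 in ys23 to 1.69 CPM in ys34 among wild lines (median 0.574 CPM). Every cultivated line thus lay above every wild line. The fitted log2 difference was 3.43 (SE 0.650), and edgeR called it when ys34 was left out but not with all lines. The same counts put this gene in the set, so its call is no separate evidence of a group difference. Glyma.10G175400, named because DESeq2 called it, was likewise put in the set by the same counts and fell below the edgeR filter. It had 0 to 4 counts in every cultivated line. It stood at 6.03, 6.65, 7.92, 5.71 and 3.85 CPM in wild ys1, ys16, ys17, ys23 and ys34, with 3 and 0 counts in ys26 and ys29. Glyma.10G175400 and Glyma.13G194900 were the 2 genes of the set that stayed under 1 CPM in every cultivated line, and no gene of the set stayed under 1 CPM in every wild line.

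Glyma.06G306400 and Glyma.04G104700 each came near to a split between the groups, with a few lines against it. Cultivated df12, df14, df17, df3 and df36 held 17.6, 29.8, 20.04, 23.9 and 44.5 CPM of Glyma.06G306400 and df43 had 0 counts, while 5 wild lines had 0 counts and ys1 and ys26 held 1.61 and 8.06 CPM (log2 difference 4.10, SE 1.24). In Glyma.04G104700 the wild lines other than ys23 held 5.23 to 11.4 CPM and ys23 held 0.508 CPM, and 5 cultivated lines had 0 to 7 counts while df14 held 7.32 CPM (log2 difference -2.49, SE 0.946). It was among the edgeR calls without df14 but not with all lines, and the same counts put it in the set. Both genes thus had cultivated lines in the state of most wild lines and the reverse.

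The cultivated and wild ranges did not overlap for 2 of the 55 genes, beside 0.927% of the 23312 genes with at least 5 CPM in at least 4 lines and 0.856% of all genes tested with edgeR. They were Glyma.08G194900 and Glyma.20G050500, both higher in cultivated lines. For the latter the margin was small, as the lowest cultivated line, df14, held 6.45 CPM and the highest wild line, ys23, 6.35 CPM, and the groups overlapped on the TMM scale. Fitted without a filter, 41 of the 55 genes were higher and 14 lower in cultivated lines, with a median log2 fold change of 0.55, beside 20815 higher and 20412 lower of 41227 genes with a median of 0.01. Genes of the set share lines, so these are not independent counts.

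Nearly every gene had its own set of lines. The 55 genes had 52 distinct sets of silent lines and 52 distinct sets of expressing lines. The largest group with one expressing set, chosen after its values were seen, held 3 genes on different chromosomes, all expressed at 5 CPM or more in df14, df36, ys16 and ys26 and in no other line. Glyma.05G195900 stood at 8.69, 11.8, 9.83 and 7.997 CPM in those 4 lines and at 0 to 4 counts in each of the other 9. Glyma.12G169600 stood at 8.58, 8.64, 5.72 and 10.1 CPM in them and at 0.0718 to 1.26 CPM elsewhere. Glyma.02G283400 stood at 6.23, 5.91, 5.80 and 9.23 CPM in them and at 0.115 to 1.73 CPM elsewhere. The 4 lines are 2 cultivated and 2 wild, so this division ran across the groups.

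A gene on yet another chromosome showed the opposite state in the same 4 lines. Glyma.14G026100 had 2 counts in df14, 4 in df36, 17 in ys16 and 1 in ys26, or at most 0.720 CPM, and held 10.97 to 38.5 CPM in the other 9 lines. The Spearman rho of Glyma.14G026100 over the 13 lines was -0.88 with Glyma.02G283400, the lowest of all 1485 pairs in the set.

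Another pair on separate chromosomes shared all silent lines. Glyma.01G012700 and Glyma.09G149500 were both silent in df3, ys16, ys17, ys26, ys29 and ys34, and both were low in ys1, at 0.609 and 0.166 CPM. Glyma.01G012700 held 9.37 to 14.3 CPM in the other cultivated lines and 13.3 CPM in ys23, and Glyma.09G149500 held 4.47 to 10.4 CPM and 7.55 CPM. Cultivated df3 was thus with the wild lines and wild ys23 with the cultivated ones in both genes. Their rho was 0.94, the highest of the 1485 pairs, whose median was 0.05. Only 13 pairs reached 0.7, and 10 pairs reached -0.7 or less. All these genes vary by choice, the pairs share libraries, and the correlations are a description over 13 lines.

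**Figure D4:**
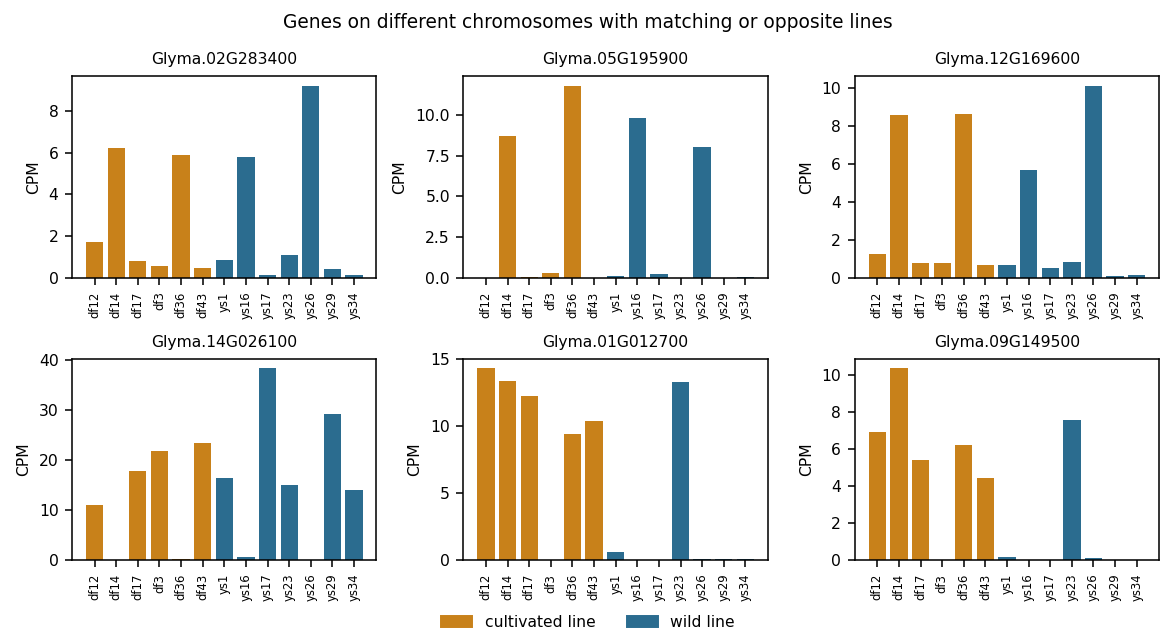
CPM in each line for genes on different chromosomes. Glyma.02G283400, Glyma.05G195900 and Glyma.12G169600 reach 5 CPM only in df14, df36, ys16 and ys26, where Glyma.14G026100 is at most 0.720 CPM, and Glyma.01G012700 and Glyma.09G149500 share their 6 silent lines.

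Complementary states were also seen for Glyma.12G218400 and Glyma.06G306400 (rho -0.85). Glyma.12G218400 had 0 counts in df12, df14, df17, df3, df36 and ys26, the same 6 lines in which Glyma.06G306400 was expressing. It held 39.0 CPM in df43 and 6.93 to 23.2 CPM in ys1, ys16, ys17, ys23 and ys34, and 4 counts in ys29. Both genes were at or near 0 in ys29, so the states were not strictly opposite. Glyma.04G017600 and Glyma.17G205900 had a rho of 0.92 but differed in their lines. In df14, df17, ys23 and ys29 both held 9.41 to 14.2 CPM, whereas in df3, df36, ys16 and ys34 Glyma.04G017600 held 7.33 to 12.4 CPM and Glyma.17G205900 at most 4 counts. The second gene was thus expressing in a part of the lines of the first.

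Few of the 55 genes lay at neighbouring identifiers. Identifiers are numbered along each chromosome, and the 55 genes fell on 19 of the 20 chromosomes and 1 unplaced sequence. Chromosome 4 held 7 of them, or 0.347% of its 2020 listed features, chromosome 11 held 0 of 2107, and the share over all features was 0.126%. Only 2 genes, or 3.64%, had another gene of the set within 2 listed identifiers, beside 0.749% of all listed features with one that near. The count stayed at 2 with up to 20 identifiers between, where 5.14% of all features were as near. With up to 50 identifiers between it was 6 genes, or 10.9%, beside 11.9% of all features. Between consecutive genes of the set on a chromosome, a median of 217 listed identifiers lay in between.

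The 1 neighbouring pair was Glyma.03G088100 and Glyma.03G088200, on chromosome 3 and next to each other in the list. Glyma.03G088100 had 0 counts in df14, df36, ys1, ys26 and ys29 and 3.97 to 6.31 CPM in the other 8 lines. Glyma.03G088200 had 0, 1 and 1 counts in ys1, ys26 and ys29, 14 counts or 0.765 CPM in df14, 57 counts or 2.19 CPM in df36, and 6.60 to 11.7 CPM in the same 8 lines. The same 5 lines were therefore the lowest for both genes, and the difference between them was that df14 and df36 kept some reads of the second. Their rho was 0.76. The 8 lines with reads of both were 4 cultivated and 4 wild lines.

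Some genes of the set had neighbours with the same lines that did not themselves meet the rule. These were chosen after their values were seen. Glyma.04G168400 was silent in df36, df43, ys17, ys26, ys29 and ys34, held 1.05 and 1.69 CPM in ys1 and ys16, and stood at 8.31, 12.4, 13.1, 24.9 and 20.2 CPM in df12, df14, df17, df3 and ys23. In the same 5 lines Glyma.04G168100, the second tested gene to its left, held 9.77, 13.0, 14.04, 25.5 and 21.2 CPM, and it held at most 2.54 CPM elsewhere (rho 0.96). Glyma.04G167800, the fourth to the left, held 10.3, 16.9, 14.9, 26.5 and 22.8 CPM there and at most 4.36 CPM elsewhere (rho 0.94). The 3 genes thus shared their order of lines closely. The treatment of reads that match more than 1 gene in counting is not stated, so that near-identical neighbours may share counts.

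A similar likeness was found beside Glyma.12G169600 and Glyma.20G046200. Glyma.12G169400, the second tested gene to the left of Glyma.12G169600, was highest in df36 and ys26, at 13.0 and 11.6 CPM, and lowest in ys34 and ys29, at 0.482 and 0.790 CPM (rho 0.95). Unlike its neighbour it held 6.58 and 7.87 CPM in df12 and ys23, so it kept the order of the lines but not the gap between them. Glyma.20G046200 had 1, 0 and 0 counts in ys1, ys17 and ys34 and 2.03 to 10.6 CPM elsewhere. The next tested gene, Glyma.20G046300, had 0 counts in those same 3 lines and 0.246 to 1.12 CPM elsewhere (rho 0.84). It was near the floor, with 0.246 CPM in ys26 and 0.252 CPM in df43, where 3 counts stood for 0.185 and 0.189 CPM. Its 0 counts therefore say little about absence.

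**Figure D5:**
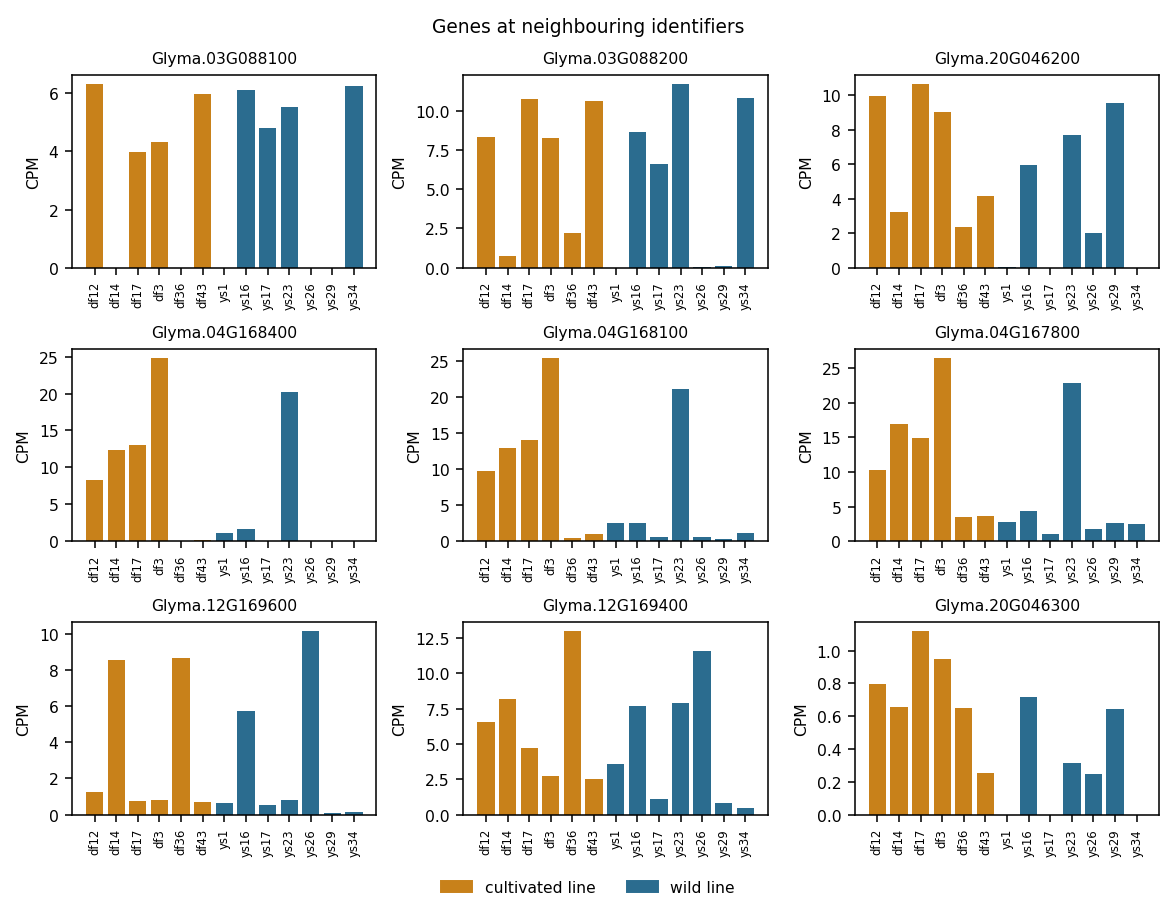
CPM in each line for genes at neighbouring identifiers. Glyma.03G088100 and Glyma.03G088200 share their 5 lowest lines, and the 3 chromosome 4 genes share df12, df14, df17, df3 and ys23 as their highest lines. Glyma.12G169400 is less sharply split than Glyma.12G169600. Glyma.20G046200 and Glyma.20G046300 are both at 0 to 1 counts in ys1, ys17 and ys34, but the latter is at most 1.12 CPM in any line.

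Such neighbours had about the same share around the set as around all tested genes. Over the 5 nearest tested genes outside the set on each side of the 49 tested genes, the median rho was 0.03 and 14 of 486 pairs, or 2.88%, reached 0.7. Over all tested genes up to 5 steps apart the median was 0.06 and 2.66% of 156785 pairs reached 0.7. In 175 of the 193 silent values, or 90.7%, both nearest tested genes outside the set had more than 2 counts in that line. Taken singly, the left one did in 93.8% and the right one in 96.9%, beside 99.2% of all values of tested genes.

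Lines shared silent genes to different extents. Of the 78 pairs of lines, ys17 and ys34 shared the most, 13 genes, which were 65% of the 20 silent in ys17 and 59.1% of the 22 silent in ys34. Over all tested genes the Pearson correlation of log2 CPM of this pair was 0.897, at rank 45 of the 78. The pair ys29 and ys34 shared 11 genes and had a correlation of 0.948, at rank 2. Glyma.03G163500 stood at 6.82 CPM in ys29, 7.17 CPM in ys34 and 1434 CPM in ys17. Likeness of lines and likeness of seed stage cannot be told apart in these correlations. Wild pairs shared 3 to 13 silent genes, cultivated pairs 2 to 6, and pairs of a cultivated and a wild line 0 to 8. Lines that lack more genes can share more, and a wild line lacked a mean of 18.1 and a cultivated line 11. As a share of the genes silent in either line of a pair, the median was 0.208 in wild pairs. It was 0.148 in cultivated pairs and 0.117 in pairs across the groups. The part of the totals in these overlaps was not tested. No gene was silent both in df14 and in ys16, ys17 or ys34, nor both in df36 and in ys16. The largest overlap across the groups as a number was that of df3 and ys26, with 8 genes, or 50% of the 16 silent in df3 and 38.1% of the 21 silent in ys26.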

How the data were processed

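Seed RNA of 6 cultivated and 7 wild soybean lines was measured, 1 library per line. The authors deposited raw read counts per gene, whole numbers that show no sign of normalization. Per the submitters' processing notes, TopHat2, SAMtools, edgeR and Trim Galore 0.3.3 were used, with no role given. Counting tool, strand setting, genome build and annotation: not given in the sources used here. Columns were matched to samples by the line name in each title. Of 59365 rows in the RefSeq gene table (Glycine soja assembly ASM419377v2), 0 matched an identifier.

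The genes and lists were chosen with earlier results of these data known. CPM values use unscaled column sums, and Spearman rho used CPM. The groups were tested by the quasi-likelihood method of edgeR 4.0.16 (R 4.3.3; TMM factors, filterByExpr with the group, Benjamini-Hochberg adjustment at 0.05) on the whole table. Standard errors (SE) were obtained by dividing the absolute fold change (log2) by the square root of F. The test was checked on simulated counts in which all cultivated lines shifted alike. It recovered 92 of 100 genes shifted 4-fold and 98 of 100 shifted 16-fold, with 5 false calls. Genes on in some lines of a group and off in others were not set up in it, so the check does not cover the set. Alternatives were RLE and upper-quartile factors, other filters, DESeq2 1.42.0, limma 3.58.1 voom with quality weights, other limits of the rule and leaving out each line. Single values per line were tested by exact permutation (Python 3.11.15, numpy 2.4.6).

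Genes were named by a rule: neighbouring genes of the set, the 4 with the highest CPM, up to 6 strictly all-or-none genes, up to 2 called genes per direction or else that with the smallest p, and those nearest the CPM limit. All other named genes were chosen after their values were seen. Product classes could not be used, since no identifier is annotated. Where 2 near-identical genes or antisense partners exist, the counting could have split or mixed their reads.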

Additional observations from a re-analysis of the deposited data

Results flagged for a closer look

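In 11 of 58 groups of lines, or 19.0%, the highest or lowest line lay outside Dixon's 95% limit. That limit is passed by about 5% of groups when values are normally spread. The genes were chosen to hold both silent and expressing lines, so the 5% is not a chance rate for them. Nothing is therefore read from the difference, and the part of that choice in it was not tested. Among cultivated lines, df3 stood apart with 0 CPM of Glyma.01G012700, df14 with 7.32 CPM of Glyma.04G104700, df43 with 39.0 CPM of Glyma.12G218400, df17 with 742 CPM of Glyma.16G040000 and df36 with 18.5 CPM of Glyma.20G050500. Among wild lines, ys23 stood apart in 3 genes, with 13.3 CPM of Glyma.01G012700, 20.2 CPM of Glyma.04G168400 and 7.55 CPM of Glyma.09G149500. Wild ys26 stood apart with 8.06 CPM of Glyma.06G306400 and with 0.0615 CPM of Glyma.13G194900, and ys17 with 12.2 CPM of Glyma.14G193100.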

How the results depend on the processing

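No paired analysis was possible because the columns carry line names and no replicate number shared by the groups. The set of 55 genes became 29 with 0 counts as the silent limit, 179 with 2 CPM and 24 with 10 CPM as the expressing limit, 31 with at least 3 silent lines, 112 with at least 2 and 31 with at least 6 expressing lines, and 43 to 50 on leaving out 1 line. Genes of the set called between cultivated and wild lines were 3 with DESeq2, beside 3.70% of all its genes. At an unadjusted edgeR p under 0.05 (added after seeing the data) they were 6, beside 18.9% of all tested genes. With limma voom they were 0, and on leaving out 1 line 0 to 2. They were 2 without df14, and 0 without ys1, ys16, ys17, ys23 or ys29, where Glyma.13G194900 was not tested. For limma voom and the fits without 1 line the share over all genes is not given, so nothing is read from those counts. With 0 counts as the silent limit, 0 genes had a neighbour, 1 gene was silent in cultivated lines alone, 10 in wild lines alone and 18 in both, and the medians per line were 4.5 and 11. With up to 5 counts, 4 genes had a neighbour and 51 were silent in both groups. Leaving out 1 line moved the count silent in cultivated lines alone from 4 to between 0 and 7. On the TMM scale with all lines, 1 gene had groups without overlap. As a separate setting, 2 to 3 genes had on leaving out 1 line. Both settings were added after seeing the data. The share over all genes is not given for either, so nothing is read from these counts. The causes of these moves were not tested. At these depths 0 counts, found in 116 of the 193 silent values, allow up to 0.115 to 0.237 CPM, and silent values at 1 or 2 counts allow more.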
